A study of Mus musculus with 157 samples.

Results

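Nucleic acid sensors and interferon signal transducers were followed along polysome gradients of activated mouse B cells. The group comprised 9 genes, taken by symbol from the 19600 genes of the count table, and all 9 were found. Zbp1, Ddx58, Ifih1 and Dhx58 encode proteins that bind foreign or misplaced nucleic acid. Stat2, Irf1, Irf7 and Irf9 encode transcription factors of the interferon response, and Parp14 encodes a macrodomain ADP-ribosyl transferase. Splenic B cells of C57BL/6Babr mice, purified with a Miltenyi B cell isolation kit, received lipopolysaccharide (LPS, a bacterial cell wall component that activates B cells) at 10 µg/ml for 48 h. They were left so (LPS) or exposed for 4 h to 20 µM etoposide, a topoisomerase II poison that leaves DNA double-strand breaks (LPS+ET). LPS+ET+KU cultures also received 10 µM KU55933, which inhibits the DNA damage kinase ATM, 1 h before the drug and, per the labels, after 47 h of LPS. All cells shared the LPS stimulus and a cycloheximide step, which freezes ribosomes on mRNA, at 100 µg/ml for 3 min. No altered allele is named for any group. The study's methods call the gradients biological replicates, but the labels do not tie them to single mice, so p-values measure the spread between these gradients.

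Cells detect viral RNA in the cytoplasm with helicases. RIG-I (Ddx58) and MDA5 (Ifih1) signal through the mitochondrial adaptor MAVS, and LGP2 (Dhx58), which lacks the signalling domain, tunes them. ZBP1 binds nucleic acid in the Z conformation and can start inflammatory cell death. Sensing leads to type I interferon, whose receptor activates STAT2. STAT2 joins IRF9 in the complex ISGF3, which binds the interferon-stimulated response element (ISRE) and switches on antiviral genes. IRF7 amplifies interferon transcription, and IRF1 acts downstream of interferon gamma. In a sucrose gradient an mRNA travels further the more ribosomes it carries.

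Each treatment had 4 gradients of 13 fractions. Monosomes were taken as fractions 4 to 7, light polysomes as 8 to 10 and heavy polysomes as 11 to 16. Each gradient is named here by its treatment and by the library pool in its column name (LUL15 to LUL18), each pool holding 1 gradient of each treatment. Library totals ran from 14724 to 4170688 counts and gradient totals from 6404957 to 21449781 counts. The smallest was the LPS+ET gradient of pool LUL16, in which heavy polysomes gave 30.4% of all counts, against 60.5% to 68.2% in the other LPS+ET gradients. For the members, differences in ribosome-associated mRNA, and the main ones by fraction class and share, are also given without this pool, singly or as a range or count. Deviations from the treatment means went together within pools, so each call of a member that changes when pool enters the model is given with its blocked value. Of 7 B cell markers 6 were above 1 CPM (TMM-scaled counts relative to library size), with Cd79b at a mean of 730.2 CPM and Pax5 at 0.970 CPM. Their sum ran from 2130.2 to 2547 CPM in LPS cells, 1129 to 1268 CPM after etoposide, and with KU55933 before it 1162 to 1810.1 CPM. T cell markers summed to at most 7.90 CPM and natural killer cell markers to at most 1.86 CPM. Myeloid markers summed to between 74.5 and 185 CPM and neutrophil markers to between 9.03 and 98.6 CPM, with ranges that overlapped between treatments, and the part of these cells in the results was not tested. Fewer cells of a type and less mRNA per cell cannot be told apart in such samples.

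Tags were counted at the poly(A) ends of mRNAs, so levels were not divided by length. Coordinates are of the GRCm38 assembly. In 6 of the 9 genes at least 95.1% of the tags lay within 40 bases of the end of a protein-coding transcript. These were Ddx58 (chr4:40203773-40239828, minus strand), Dhx58 (chr11:100694884-100704271, minus strand), Stat2 (chr10:128270559-128292849, plus strand), Irf1 (chr11:53770014-53778374, plus strand), Irf9 (chr14:55603571-55610030, plus strand) and Parp14 (chr16:35832874-35871544, minus strand). The Parp14 site lay 15 bases past the annotated gene, and the others were in untranslated exons. The Dhx58 site also lies within the antisense gene Dhx58os, which is on the opposite strand, and whether its tags hold reads of both was not tested. The Irf7 site, at position 141263188 of chromosome 7 (gene chr7:141262706-141266481, minus strand), was in an untranslated exon, 1 base from the end of a retained-intron transcript. Ifih1 (chr2:62595798-62646255, minus strand) had 7 sites, the main one with 58.7% of its tags at the end of the transcript Ifih1-202. Zbp1 (chr2:173206612-173218923, minus strand) had 2 main sites of nearly equal use. One, with 47.1% of its tags, was the end of the transcript Zbp1-201, and the other, with 46.4%, lay in an intron, 3 bases from the end of the coding transcript Zbp1-202. The gene's count is the sum of its sites.

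The start regions of the members are shown because ISGF3 and the IRF factors, which members encode, act on promoters of this kind. RefSeq promoters, from 250 bases before to 50 bases after a start site on GRCm38.p6, were at hand for 6 of the 9 members: Ifih1, Ddx58, Stat2, Irf1, Irf7 and Irf9. The ISRE core was searched as GAAANNGAAA on both strands, and the interferon gamma element GAS as TTCNNNGAA, which reads the same on both. The ISRE core was in 3 members (Ifih1, Ddx58 and Stat2), in 3.99% of all 27025 genes with a promoter and in 3.44% of all 32851 promoters. The GAS motif was in 1 member, Irf1, in 9.55% of these genes and in 8.30% of all promoters. The ISRE core began at position 32 from the start site of Ifih1 and, on the opposite strand, at position 2 of Ddx58 and position -222 of Stat2. The GAS motif of Irf1 began at position -90. The promoters follow from 5′ to 3′ on the gene's strand, with the motif in capitals. Stat2 and Irf1 lie on the plus strand and Ifih1, Ddx58 and Irf7 on the minus strand, and Irf1 is shown by the first of its start sites. The promoter of Irf7 is shown because Irf7 was the member called in ribosome-associated mRNA, and neither motif was in its window.
Ifih1 promoter, chr2:62646206-62646505: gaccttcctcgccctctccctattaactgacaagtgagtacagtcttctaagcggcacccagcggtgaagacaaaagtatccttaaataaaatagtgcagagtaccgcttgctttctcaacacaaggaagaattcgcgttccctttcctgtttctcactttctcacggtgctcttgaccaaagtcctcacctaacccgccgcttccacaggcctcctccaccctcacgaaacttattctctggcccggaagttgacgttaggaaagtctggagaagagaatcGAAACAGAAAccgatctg
Ddx58 promoter, chr4:40239776-40240075: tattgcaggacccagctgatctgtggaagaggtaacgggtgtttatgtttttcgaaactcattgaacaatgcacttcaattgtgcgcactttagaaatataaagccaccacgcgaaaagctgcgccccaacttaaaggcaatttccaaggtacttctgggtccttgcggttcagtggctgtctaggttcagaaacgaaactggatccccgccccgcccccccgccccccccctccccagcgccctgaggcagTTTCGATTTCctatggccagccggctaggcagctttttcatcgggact
Stat2 promoter, chr10:128270248-128270547: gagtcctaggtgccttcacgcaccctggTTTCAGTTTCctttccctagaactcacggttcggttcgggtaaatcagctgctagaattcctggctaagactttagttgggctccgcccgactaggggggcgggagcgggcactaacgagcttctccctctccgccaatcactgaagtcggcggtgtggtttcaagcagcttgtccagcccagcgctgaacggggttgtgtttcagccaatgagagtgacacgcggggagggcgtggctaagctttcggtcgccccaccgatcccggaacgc
Irf1 promoter, chr11:53769764-53770063: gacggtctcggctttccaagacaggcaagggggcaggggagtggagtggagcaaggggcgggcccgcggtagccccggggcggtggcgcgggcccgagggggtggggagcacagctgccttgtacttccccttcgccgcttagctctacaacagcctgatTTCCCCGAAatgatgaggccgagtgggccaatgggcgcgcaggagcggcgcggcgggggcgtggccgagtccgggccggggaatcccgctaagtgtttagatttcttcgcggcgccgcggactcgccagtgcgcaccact
Irf7 promoter, chr7:141266375-141266674: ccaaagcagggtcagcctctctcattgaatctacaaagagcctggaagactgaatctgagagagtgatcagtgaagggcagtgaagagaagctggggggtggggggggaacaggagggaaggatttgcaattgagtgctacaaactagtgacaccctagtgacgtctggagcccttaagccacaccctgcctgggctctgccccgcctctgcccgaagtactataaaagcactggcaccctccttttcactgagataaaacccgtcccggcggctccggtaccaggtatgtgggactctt

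In LPS cells the ISGF3 mRNAs Stat2 and Irf9, with the sensor Zbp1, were the most abundant members. Ribosome-associated mRNA, the sum of fractions 4 to 16, was 272 ± 7.83 CPM for Stat2, 197 ± 43.3 CPM for Irf9 and 195 ± 17.04 CPM for Zbp1 (mean ± SD, n = 4 gradients, as throughout). The Stat2 gradients lay above all those of Irf9, and Irf9 and Zbp1 overlapped. A middle group lay below all Zbp1 gradients, with Ddx58 at 72.9 ± 16.4 CPM, Dhx58 at 61.5 ± 7.36 CPM, Irf1 at 61.2 ± 8.12 CPM and Irf7 at 47.1 ± 12.8 CPM, each overlapping the next. Parp14 (30.2 ± 5.09 CPM) and Ifih1 (24.98 ± 5.49 CPM) were lowest and overlapped. Ifih1, the least abundant, had no count in 11 of 156 libraries and a median of 15 counts per library, and each other member had no count in 5 libraries or fewer.

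**Figure D1:**
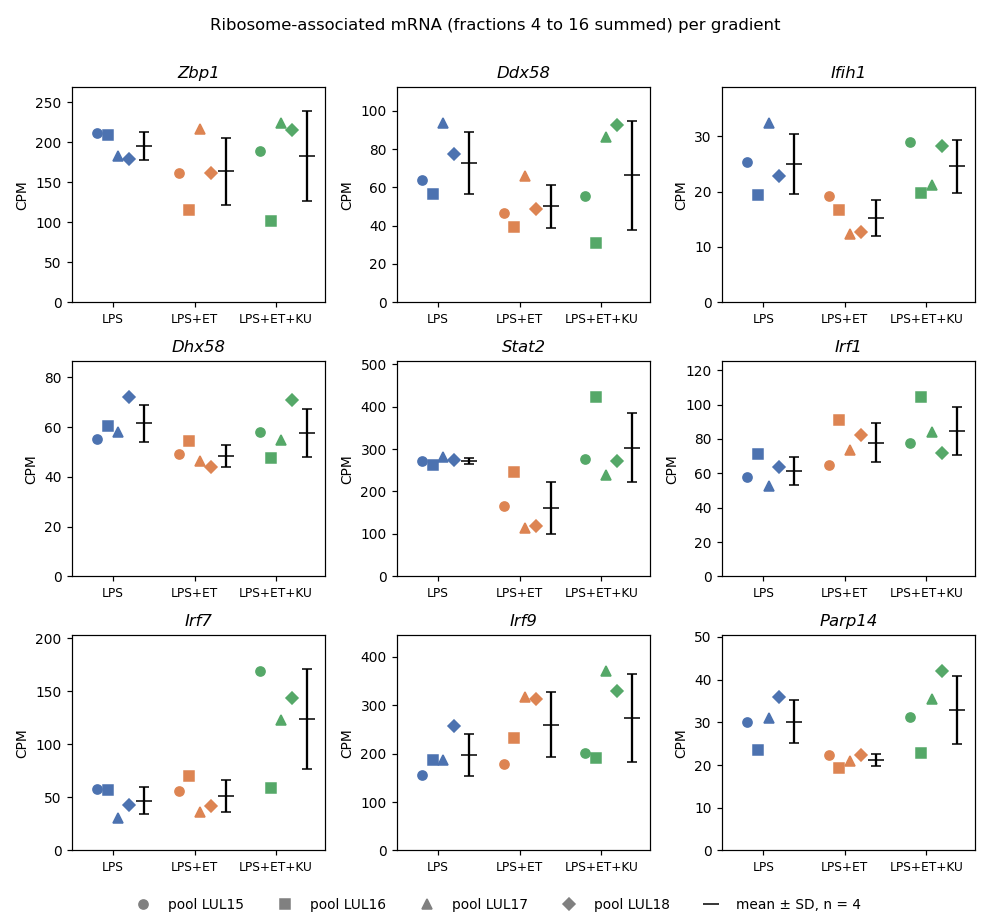
Ribosome-associated mRNA of the 9 members in CPM (vertical axes, from 0) in each gradient, by treatment (colour) and pool (symbol), with mean ± SD of 4 gradients in black. Stat2 lies between 262 and 281 CPM in LPS and between 115 and 246 CPM in LPS+ET, and Irf7 reaches 169 CPM in LPS+ET+KU, where the gradient of pool LUL16 is at 58.8 CPM.

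Along the gradient the members took contrasting shapes. Ddx58, Ifih1, Dhx58, Stat2 and Parp14 mRNA lay deep, Zbp1 and Irf1 in the middle, and Irf7 at the top among monosomes. In LPS, mean CPM peaked in fraction 15 for Ddx58, Ifih1 and Stat2, in fraction 14 for Dhx58, in fraction 16 for Parp14, in fraction 11 for Zbp1 and in fraction 9 for Irf1. Stat2 went from 94.8 ± 82.6 CPM in fraction 4 to 905 ± 174 CPM in fraction 15. Irf7 ran the other way, from 248 ± 184 CPM in fraction 4 to 17.4 ± 11.8 CPM in fraction 12. The same Irf7 shape was seen after etoposide (313 ± 147 and 17.4 ± 12.2 CPM) and with KU55933 before it (598 ± 235 and 37.3 ± 19.3 CPM), and Irf7 peaked in fraction 4 or 5 in each of the 12 gradients. The values of fraction 4 in LPS rest on 1 to 183 Irf7 counts per library. Fraction 4 is the first fraction in the data, so any Irf7 mRNA nearer the top of the gradient was not measured.

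**Figure D2:**
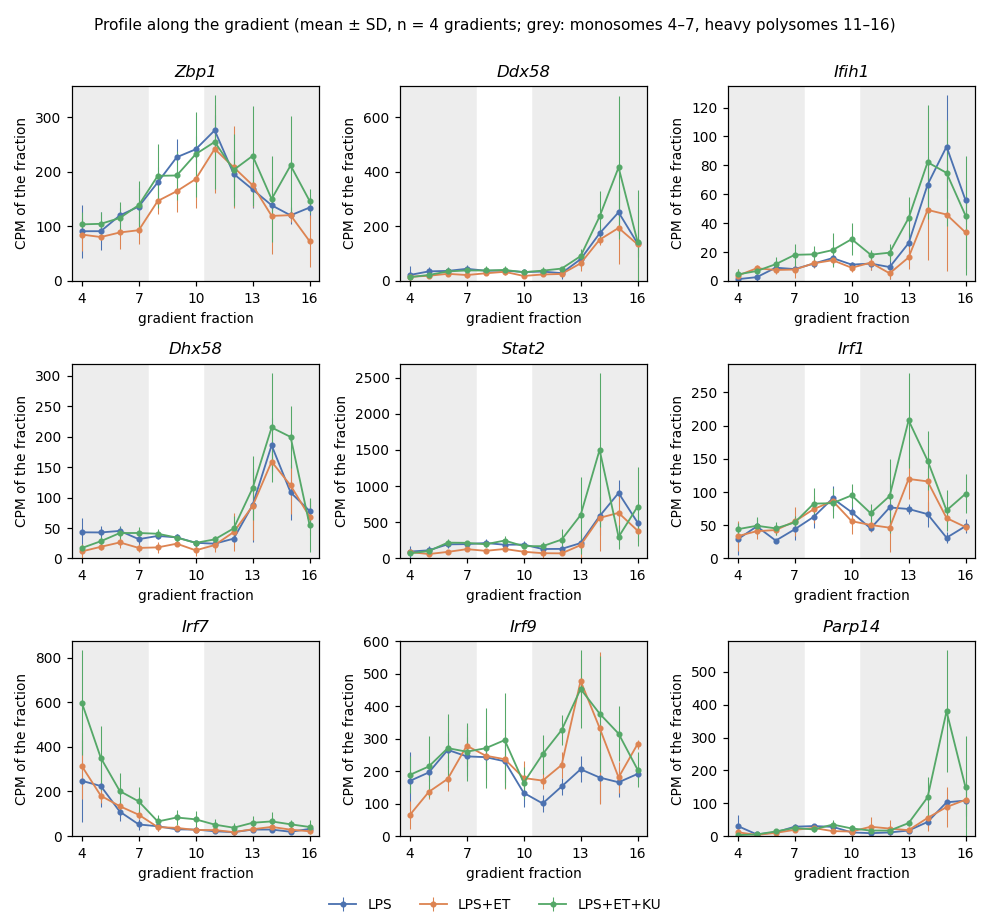
CPM of each fraction library (vertical axes, from 0) against gradient fraction 4 to 16, as mean ± SD of 4 gradients per treatment, with bars below 0 cut off. Irf7 is highest in fraction 4 in all treatments, Stat2, Ddx58, Ifih1, Dhx58 and Parp14 are highest in fractions 14 to 16, and the Irf9 peak stands at fraction 6 in LPS and at fraction 13 in LPS+ET and LPS+ET+KU.

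Heavy polysomes were compared with monosomes within each treatment with edgeR, with the gradient as block, and called at an adjusted p under 0.01. The differences are relative to the scaled total of each library. Irf7 was lower in heavy polysomes by a log2 difference of -3.10 ± 0.13 (SE) in LPS, and the LPS+ET and LPS+ET+KU values were -3.12 ± 0.23 and -3.32 ± 0.18, with adjusted p of 1.57e-19, 8.96e-09 and 1.67e-12. It was called in all 3 treatments and on leaving out any gradient. Ddx58, the RIG-I mRNA, was higher in heavy polysomes in all 3 treatments, by 0.55 ± 0.14, 1.03 ± 0.23 and 1.09 ± 0.17 (adjusted p = 0.000846, 0.00118 and 1.68e-05). The first of these was lost without the LPS gradient of pool LUL17 (adjusted p = 0.0111), and the second when pool LUL15 was left out of LPS+ET (adjusted p = 0.0160). Ifih1, the MDA5 mRNA, was higher by 1.50 ± 0.19 in LPS (adjusted p = 5.34e-08) and by 1.00 ± 0.19 in LPS+ET+KU (adjusted p = 0.000134), and its difference of 0.70 ± 0.35 in LPS+ET was not called. The monosome sums of Ifih1 were small, with 13 to 16 counts per gradient in LPS, 11 to 14 in LPS+ET and 39 to 52 in LPS+ET+KU. Irf9 was lower by -1.28 ± 0.12 in LPS (adjusted p = 9.21e-11), while its LPS+ET and LPS+ET+KU differences, 0.25 ± 0.22 and -0.26 ± 0.18, were not called.

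Of the 9 members 4 were called in LPS, where 59.4% of all genes tested were called. The same count, 4, held after etoposide (40.3% of all genes), and 6 were called with KU55933 before it (50.2% of all genes). Parp14 was called in LPS+ET (1.14 ± 0.28) and LPS+ET+KU (1.24 ± 0.21), and Dhx58 in LPS+ET (1.15 ± 0.27) and LPS+ET+KU (0.56 ± 0.18). In LPS+ET the monosome sums of Parp14 held 10 to 17 counts per gradient. Stat2 was called in LPS+ET+KU (0.73 ± 0.17). Zbp1 and Irf1 were not called in any treatment, although Zbp1 was called in LPS+ET without pool LUL16 (adjusted p = 0.00923) and Irf1 in LPS+ET+KU with no filter on low counts. In LPS+ET, leaving out pool LUL15 left Irf7 as the 1 member called, and Parp14 was also lost without pool LUL18 (adjusted p up to 0.0189). In LPS, Parp14 was called without pool LUL16 (adjusted p = 0.00152). In LPS+ET+KU, Dhx58 was lost without pool LUL15, LUL16 or LUL18 (adjusted p up to 0.0426).

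The heavy polysome share is the percentage of a gene's summed CPM that lay in fractions 11 to 16, with each fraction at equal weight. The study made its fraction libraries from equal RNA concentrations, so the share is relative to other mRNAs and is not a percentage of molecules. The study also reported that etoposide reduced polysome assembly globally, which such a share does not show. In LPS it was 81.3% ± 1.29 for Ifih1, above 97.7% of 8000 genes with enough counts, and 17.6% ± 2.82 for Irf7, above 3.29% of them. The median gene was at 55.2%. Ddx58 was at 74.1% ± 4.41, Stat2 at 67.5% ± 3.44, Parp14 at 67.3% ± 4.29 and Dhx58 at 66.5% ± 1.24. Zbp1 (48.9% ± 3.76), Irf1 (48.1% ± 4.95) and Irf9 (40.2% ± 1.09) lay below the median gene. Coding lengths were 5451 bases for Parp14, 3075 for Ifih1, 2778 for Ddx58, 2766 for Stat2 and 2034 for Dhx58, the 5 members above the median gene. They were 1371 bases for Irf7, 1233 for Zbp1, 1197 for Irf9 and 987 for Irf1, the 4 members below it. Irf7, with the longest coding sequence of these 4, had the lowest share. The lengths are of the principal transcript of each gene. In Zbp1, Ifih1, Irf1 and Irf7 a main tag site lay nearest the end of another transcript. From the counts as deposited, where deeper libraries weigh more, 32.5% ± 4.50 of the Irf7 tags in LPS lay in heavy polysomes, 21.9% ± 5.84 in light polysomes and 45.6% ± 3.13 in monosomes, so monosomes were still the largest class but held less than the other classes together.

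**Figure D3:**
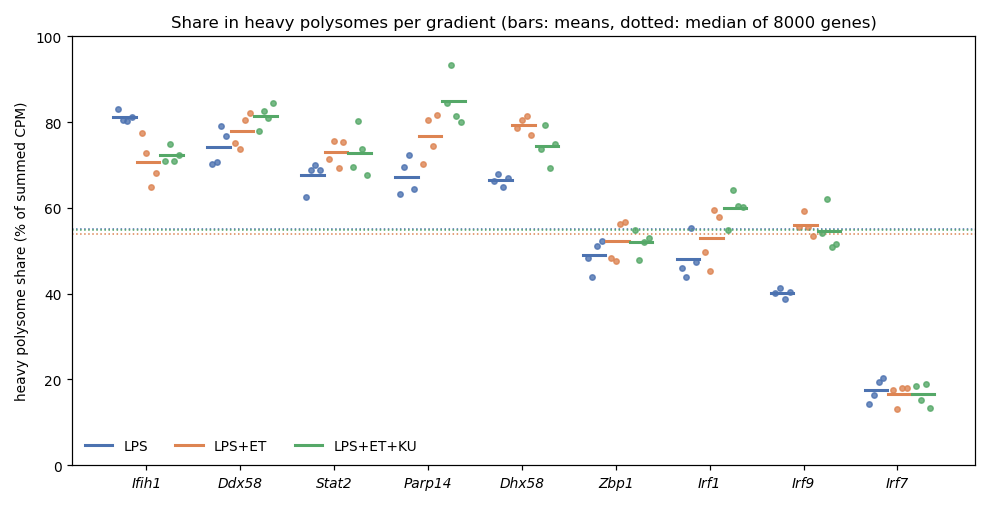
Heavy polysome share in % of summed CPM (vertical axis, 0 to 100) for each member, ordered by its mean in LPS, with 1 point per gradient, bars at the means of 4 gradients and dotted lines at the median of 8000 genes in each treatment. Irf9 lies at 38.7% to 41.4% in LPS and at 53.5% to 59.3% in LPS+ET, and Irf7 stays at or under 20.4% in all gradients.

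Etoposide was compared with LPS first, to see how these mRNAs differed on ribosomes after DNA damage. The mRNAs of Stat2 and of the helicases had lower values, and those of Irf1 and Irf9 higher ones. In the sum over fractions 4 to 16 none of the 9 members was called by edgeR, where 12.7% of all genes tested were called. Unadjusted p was under 0.05 for 4 members, and DESeq2 called 0. Throughout, shares of all genes called are of the edgeR or limma test named, at an adjusted p under 0.01. Shares of all genes at an unadjusted p under 0.05, or by DESeq2, are not given. Stat2 was at 271, 262, 281 and 274 CPM in LPS (pools LUL15 to LUL18, in this order here and below) and at 166, 246, 115 and 119 CPM in LPS+ET. All LPS+ET gradients were below all LPS gradients, and pool LUL16 was the closest to LPS. The log2 difference was -0.75 ± 0.25 (adjusted p = 0.0445). With pool as block Stat2 was called (-0.83 ± 0.18, adjusted p = 0.00205), as it was without pool LUL16 (-1.05 ± 0.17, adjusted p = 0.00121).

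Ifih1 was at 25.3, 19.4, 32.4 and 22.8 CPM in LPS and at 19.2, 16.7, 12.4 and 12.6 CPM in LPS+ET. These groups did not overlap, though the highest LPS+ET gradient was close to the lowest LPS gradient. The log2 difference was -0.71 ± 0.22 (adjusted p = 0.0304), called with pool as block (adjusted p = 0.00823) but not without pool LUL16 (-0.87 ± 0.23, adjusted p = 0.0162). Parp14 was at 30.1, 23.6, 31.1 and 35.9 CPM in LPS and at 22.3, 19.3, 20.9 and 22.3 CPM in LPS+ET. It was lower in each of the 4 pools (-0.51 ± 0.20, adjusted p = 0.0808), and was called with pool as block (adjusted p = 0.00864) but not without pool LUL16 (-0.58 ± 0.16, adjusted p = 0.0203). Dhx58, at 55.2 to 72.1 CPM before and 43.9 to 54.3 CPM after etoposide, also did not overlap, and its adjusted p was 0.145. With these, 4 of the 9 members had groups of gradients that did not overlap, against 27.5% of all genes tested. Ddx58 was lower in each pool, at ratios of 0.728, 0.694, 0.705 and 0.631, with overlap between the groups (-0.54 ± 0.30, adjusted p = 0.234). Zbp1 was lower in 3 of 4 pools (-0.25 ± 0.25, adjusted p = 0.520).

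The interferon regulatory factors among the members had log2 differences above 0, none of them called. Irf1 was at 57.9, 71.4, 52.3 and 63.4 CPM in LPS and at 64.6, 91.2, 73.5 and 82.2 CPM in LPS+ET, higher in each pool but not called (0.35 ± 0.17, adjusted p = 0.179). Irf9 was at 155, 188, 187 and 258 CPM in LPS and at 178, 233, 317 and 313 CPM in LPS+ET, also higher in each pool and not called (0.40 ± 0.26, adjusted p = 0.317). Both pairs of groups overlapped. Irf7 was at 58.1, 56.7, 31.03 and 42.6 CPM in LPS and at 56.3, 70.4, 36.3 and 41.98 CPM in LPS+ET (0.12 ± 0.32, adjusted p = 0.836), higher in 2 pools and lower in 2. Without pool LUL16 none of Dhx58, Ddx58, Zbp1, Irf1, Irf9 and Irf7 was called for LPS+ET against LPS (adjusted p from 0.0773 for Dhx58 to 0.962 for Irf7).

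**Figure D4:**
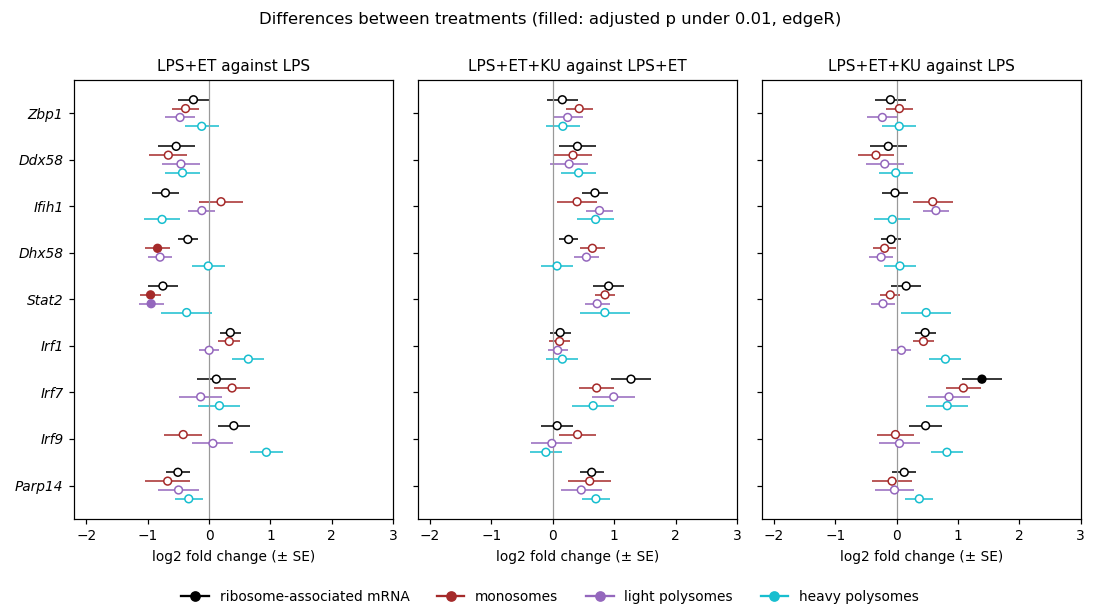
Log2 fold change ± SE of each member (rows) in the 3 comparisons of treatments (panels), for the sum of fractions 4 to 16, monosomes, light and heavy polysomes (colours), with filled points at an edgeR adjusted p under 0.01. The filled points are Dhx58 and Stat2 in monosomes and Stat2 in light polysomes for LPS+ET against LPS, and Irf7 in the sum for LPS+ET+KU against LPS.

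Split by fraction class, Stat2 and Dhx58 fell after etoposide in the upper part of the gradient. In monosomes Stat2 was at 197, 163, 162 and 164 CPM in LPS and at 102, 93.2, 88.6 and 69.8 CPM in LPS+ET, with a wide gap between the groups. It fell by 0.95 on the log2 scale (SE 0.17, adjusted p = 0.00130), and stayed called whichever gradient was left out, and without pool LUL16 (-1.02 ± 0.20, adjusted p = 0.00362). Dhx58 in monosomes was at 44.6, 38.5, 39.7 and 37.3 CPM in LPS and at 21.9, 19.96, 20.5 and 27.1 CPM in LPS+ET. It fell by 0.84 (SE 0.20, adjusted p = 0.00948), but the call was lost on leaving out any 1 of the 8 gradients (adjusted p = 0.0113 to 0.0296) and without pool LUL16 (adjusted p = 0.0128). With pool as block its adjusted p was 0.000925. These 2 of the 9 members were called in monosomes, where 9.52% of all genes tested were called.

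In light polysomes Stat2 was at 256, 218, 209 and 188 CPM in LPS and at 108, 157, 97.8 and 89.6 CPM in LPS+ET, again without overlap. It fell by 0.94 (SE 0.20, adjusted p = 0.00488), the 1 member called where 10.6% of all genes tested were called. The call was lost on leaving out any of 6 gradients (adjusted p up to 0.0228) and kept without the LPS gradient of pool LUL18 or the LPS+ET gradient of pool LUL16. Without the whole of pool LUL16 Stat2 was also called (-1.15 ± 0.19, adjusted p = 0.00113). Dhx58 in light polysomes (-0.80 ± 0.20, adjusted p = 0.0119) was called with pool as block (adjusted p = 0.00279) and by DESeq2 (adjusted p = 0.00297). In heavy polysomes edgeR called none of the 9 members (unadjusted p was under 0.05 for 3, and DESeq2 called 1, Irf9, with an adjusted p of 0.00283), where 9.69% of all genes tested were called. There Stat2 differed by -0.37 ± 0.41, and without pool LUL16 it was called (-1.03 ± 0.22, adjusted p = 0.00495).

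Irf9, the DNA-binding part of ISGF3, had its peak in another part of the gradient after etoposide. In fraction 6 it was at 265 ± 51.9 CPM in LPS and 176 ± 38.2 CPM in LPS+ET, and in fraction 13 at 206 ± 39.7 CPM and 478 ± 67.8 CPM. Irf9 peaked in fractions 6 to 9 in the 4 LPS gradients, in fractions 13 and 14 in the 4 LPS+ET gradients and in fractions 12 to 14 in the 4 LPS+ET+KU gradients. The heavy polysome share of Irf9 was 40.2%, 41.4%, 38.7% and 40.3% in the LPS gradients and 55.6%, 59.3%, 55.5% and 53.5% after etoposide. With KU55933 before it the shares were 54.01%, 62.1%, 50.8% and 51.5%. All gradients with etoposide were above all LPS gradients, with or without KU55933. On the logit scale (log2 of the odds of lying in heavy polysomes), tested with limma, the difference was 0.92 ± 0.19 for LPS+ET against LPS (adjusted p = 0.0230) and 0.84 ± 0.19 for LPS+ET+KU against LPS (adjusted p = 0.0237), so neither was called. Without pool LUL16 these were 0.88 ± 0.17 and 0.72 ± 0.17 (adjusted p = 0.0526 and 0.0594). From the counts as deposited, without equal weight, the shares of the 3 treatments, in the same order, were 49.8% ± 4.35, 66.7% ± 9.37 and 55.6% ± 4.53.

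In heavy polysomes Irf9 was at 138, 174, 154 and 234 CPM in LPS and at 207, 429, 354 and 348 CPM in LPS+ET. It was higher in each pool (0.93 ± 0.27, adjusted p = 0.0249), and was called with pool as block (adjusted p = 0.00263) but not without pool LUL16, whose LPS+ET gradient was the highest (0.79 ± 0.28, adjusted p = 0.0625). The interaction of treatment and fraction, which tests a change of shape over all 13 fractions, gave Irf9 an adjusted p of 0.0833, and 0.000123 with a term per gradient as block. Without pool LUL16 the adjusted p was 0.343. None of the 9 members was called by the edgeR interaction test for LPS+ET against LPS (2 had an unadjusted p under 0.05, and no other tool was run), where 1.37% of all genes tested were called.

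In LPS+ET none of the 9 heavy polysome shares was called against LPS by limma (3 had an unadjusted p under 0.05, and no other tool was run), where 0.312% of all genes tested were called. Dhx58 was at 66.2%, 67.8%, 64.9% and 67.1% in LPS and at 78.6%, 80.5%, 81.3% and 76.95% in LPS+ET, a logit difference of 0.95 ± 0.19 (adjusted p = 0.0228) with no overlap. Ifih1 differed the other way, at 83.1%, 80.4%, 80.3% and 81.3% in LPS and at 77.5%, 72.7%, 64.8% and 68.1% in LPS+ET (-0.83 ± 0.21, adjusted p = 0.0458). These 2 helicase mRNAs thus had differences of opposite sign in the same gradients, also without pool LUL16 (0.95 ± 0.20 for Dhx58 and -0.89 ± 0.24 for Ifih1, adjusted p = 0.0560 and 0.102). From the counts as deposited, the Dhx58 share was 73.5% ± 4.58 in LPS and 81.5% ± 7.55 in LPS+ET. That of Ifih1 was 80.1% ± 3.60 and 69.7% ± 8.98, and for both genes the deposited shares of the groups overlapped. With each fraction at equal weight, the Irf7 share was 17.6% ± 2.82 in LPS and 16.7% ± 2.36 in LPS+ET (-0.09 ± 0.22, adjusted p = 0.863).

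LPS+ET+KU was compared with LPS+ET to see how these mRNAs differed when ATM was inhibited before etoposide. The same LPS+ET gradients enter the comparison with LPS above, with the opposite sign. Low LPS+ET values thus give both a fall there and a rise here, so these values are not independent of those. Against LPS+ET all 9 members had positive log2 differences in ribosome-associated mRNA, and Irf7 and Stat2 had the largest. The median was 0.40, beside 0.04 over all genes tested. The Irf9 value turned negative in 3 of 15 alternative fits. In pool LUL16, Zbp1, Ddx58, Dhx58, Irf7 and Irf9 were lower in LPS+ET+KU than in LPS+ET. None of the 9 was called by edgeR (unadjusted p was under 0.05 for 4, and DESeq2 called 1, Irf7), where 0.455% of all genes tested were called. Irf7 was at 169, 58.8, 123 and 144 CPM in LPS+ET+KU, next to the LPS+ET values of 56.3, 70.4, 36.3 and 41.98 CPM. The ratios within pools were 3.01, 0.835, 3.40 and 3.42, so pool LUL16 alone was not higher. The log2 difference was 1.27 ± 0.32 (adjusted p = 0.0547, and 0.00531 by DESeq2). It was called with pool as block (1.29 ± 0.28, adjusted p = 0.00738) and without pool LUL16 (1.70 ± 0.25, adjusted p = 0.00414).

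Stat2 was at 277, 423, 240.0 and 272 CPM in LPS+ET+KU, 1.67 to 2.29 times its LPS+ET level within each pool. Across pools the groups overlapped, because LPS+ET of pool LUL16 stood at 246 CPM. The log2 difference was 0.91 ± 0.25 (adjusted p = 0.0773), called with pool as block (0.93 ± 0.18, adjusted p = 0.00397) and without pool LUL16 (0.98 ± 0.17, adjusted p = 0.00864). Parp14, at 31.3, 22.7, 35.5 and 41.99 CPM in LPS+ET+KU, lay above all its LPS+ET gradients (0.63 ± 0.20, adjusted p = 0.115), and was called with pool as block (0.61 ± 0.13, adjusted p = 0.00801) but not without pool LUL16 (0.73 ± 0.16, adjusted p = 0.0218). Ifih1, at 28.98, 19.7, 21.2 and 28.2 CPM, also lay above all its LPS+ET gradients (0.69 ± 0.22, adjusted p = 0.120, and 0.82 ± 0.23, adjusted p = 0.0544, without pool LUL16). Parp14 and Ifih1 were the 2 of 9 members whose groups did not overlap, against 8.57% of all genes tested. The other members had smaller differences with 95% intervals that included 0, of -0.19 to 0.99 for Ddx58, -0.06 to 0.57 for Dhx58, -0.33 to 0.64 for Zbp1, -0.22 to 0.46 for Irf1 and -0.45 to 0.59 for Irf9. Without pool LUL16 none of these 5 was called (adjusted p from 0.171 for Dhx58 to 0.792 for Irf9).

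By class, none of the 9 members was called by edgeR for LPS+ET+KU against LPS+ET in monosomes (0.213% of all genes called), light polysomes (0.292%) or heavy polysomes (0.572%). At an unadjusted p under 0.05 there were 3, 4 and 2 members, and DESeq2 called 1, 0 and 0. Stat2 was the member DESeq2 called in monosomes (adjusted p = 0.000138). It was at 160.4, 178, 135 and 165 CPM there in LPS+ET+KU, above all LPS+ET gradients, with an edgeR log2 difference of 0.85 ± 0.17 (adjusted p = 0.0279). With pool as block Stat2 was called in monosomes (adjusted p = 0.000172) and in light polysomes (0.74 ± 0.15, adjusted p = 0.00299), and without pool LUL16 in neither (adjusted p = 0.0633 and 0.0410). In the edgeR interaction test of LPS+ET+KU against LPS+ET none of the 9 was called (1 had an unadjusted p under 0.05), where 1.05% of all genes tested were called, and Stat2 had an adjusted p of 0.118. With a term per gradient as block it was called (adjusted p = 0.00607), as it was when pool LUL16 was left out of LPS+ET (adjusted p = 0.00543), but not without the whole of pool LUL16 (adjusted p = 0.0626). The Stat2 peak was in fraction 14 in 3 of the 4 LPS+ET+KU gradients, at a mean of 1501 ± 1066 CPM, and the SD shows how uneven the pools were. By limma no heavy polysome share was called in this comparison, for any member or any of the 8000 genes (0.0%), and 1 member had an unadjusted p under 0.05.

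LPS+ET+KU against LPS shares gradients with both comparisons above, so its values are not independent of theirs. Irf7 rose, the 1 member called where 10.7% of all genes tested were called. Its LPS+ET+KU gradients, at 58.8 to 169 CPM, lay above its LPS gradients, at 31.03 to 58.1 CPM, but the gradient of pool LUL16 cleared the highest LPS gradient by little. The log2 difference was 1.39 ± 0.32 (edgeR adjusted p = 0.00777, DESeq2 adjusted p = 0.000342), a rise of 2.62-fold. Within pools the ratios were 2.91, 1.04, 3.97 and 3.37. The call was lost on leaving out any of 7 of the 8 gradients (adjusted p up to 0.0274) and kept without the LPS+ET+KU gradient of pool LUL16 (adjusted p = 0.000854). It was also lost in a fit of just the 8 gradients compared (adjusted p = 0.0154), and kept with pool as block (adjusted p = 0.00112). Without pool LUL16 the log2 difference was 1.72 ± 0.25 (adjusted p = 0.000865).

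Irf7 mRNA was highest in monosomes per library, and the sum over fractions weights each fraction by the tags it gave. Heavy polysomes gave 52.3% to 62.4% of all counts in the LPS gradients and 37.6% to 55.5% in the LPS+ET+KU gradients. With each fraction at equal weight the Irf7 difference was 1.04 ± 0.35 (limma, adjusted p = 0.0585), and in monosomes alone it was 1.09 ± 0.29 (edgeR adjusted p = 0.0208). Irf7 in monosomes was at 162, 155, 87.4 and 116 CPM in LPS and at 389, 139, 284 and 297 CPM in LPS+ET+KU, with pool LUL16 within the LPS range. It was called there with pool as block (1.03 ± 0.20, adjusted p = 0.000355), without pool LUL16 (1.37 ± 0.26, adjusted p = 0.00448) and by DESeq2 (adjusted p = 0.00555). In heavy polysomes it differed by 0.82 ± 0.34, and without pool LUL16 it was called (1.16 ± 0.23, adjusted p = 0.00390). Of 6 markers of plasmacytoid dendritic cells, which are known for high Irf7 and which a B cell isolation kit is meant to remove, 3 were in the table. Of these, Siglech was at a mean of 0.171 CPM, Cox6a2 at 11.7 CPM and Pacsin1 at 20.05 CPM. The 3 summed to 114 CPM in LPS+ET+KU of pool LUL16 and to 10.8 to 46.2 CPM in the other gradients, and the part of these cells in the Irf7 values was not tested. With each fraction at equal weight the Irf7 heavy polysome share was 16.5% ± 2.61 in LPS+ET+KU, within the range of the LPS gradients in 3 of 4 pools. From the counts as deposited it was 30.1%, 27.5%, 37.2% and 35.2% in the LPS gradients and 18.7%, 10.6%, 23.7% and 19.8% in the LPS+ET+KU gradients. These deposited shares did not overlap, in gradients whose heavy polysomes also gave a lower share of all counts, and their difference was not tested.

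Irf1 was at 77.5, 104.3, 84.2 and 72.1 CPM in LPS+ET+KU, above all LPS gradients (0.46 ± 0.17, adjusted p = 0.0692). It was called with pool as block (adjusted p = 0.00995) and with each fraction at equal weight (0.65 ± 0.13, limma adjusted p = 0.00536), and not without pool LUL16 (0.42 ± 0.15, adjusted p = 0.0591). In heavy polysomes the Irf1 difference was 0.79 ± 0.26 (adjusted p = 0.0476, and 0.00443 with pool as block), and that of Irf9 was 0.82 ± 0.27 (adjusted p = 0.0456, and 0.00536 with pool as block). Without pool LUL16 these heavy polysome differences were 0.66 ± 0.18 and 0.86 ± 0.28 (adjusted p = 0.0212 and 0.0453). Irf1 and Irf7 were the 2 of 9 members whose groups did not overlap in the sum, against 26.4% of all genes tested. Stat2 (0.16 ± 0.25), Ifih1 (-0.03 ± 0.21), Dhx58 (-0.09 ± 0.16), Ddx58 (-0.14 ± 0.30) and Zbp1 (-0.10 ± 0.25) were within 1 SE of 0 in the sum. Without pool LUL16 the Stat2 value was -0.07 ± 0.17, and no member but Irf7 was called in the sum. Parp14 was at 0.12 ± 0.19 in the sum, but with each fraction at equal weight it was called (0.95 ± 0.17, adjusted p = 0.00261). In fraction 15 Parp14 was at 103 ± 14.1 CPM in LPS and 379.8 ± 185 CPM in LPS+ET+KU, from 29 to 153 counts per library in the latter.

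In the classes none of the 9 members was called for LPS+ET+KU against LPS by edgeR, in monosomes (5.96% of all genes called), light polysomes (7.13%) or heavy polysomes (7.95%). At an unadjusted p under 0.05 there were 2, 2 and 3 members, and DESeq2 called 1, 0 and 0. By limma the heavy polysome share was called for none of the 9 (6 had an unadjusted p under 0.05), where 0.875% of all genes tested were called. Parp14 had the largest difference in share among the members, with 63.2%, 69.5%, 72.2% and 64.3% in LPS and 84.5%, 93.3%, 81.4% and 80.01% in LPS+ET+KU (1.54 ± 0.35, adjusted p = 0.0270), and the groups did not overlap. Without pool LUL16 the difference was 1.19 ± 0.27 (adjusted p = 0.0552). From the counts as deposited, the Parp14 share was 69.4% ± 8.23 in LPS and 72.02% ± 5.21 in LPS+ET+KU.

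Other genes of the pathway were followed in ribosome-associated mRNA from written lists. Their values are of the main edgeR fit and are not given without pool LUL16 or with pool as block. Of all genes tested 12.7% were called in LPS+ET against LPS, 0.455% in LPS+ET+KU against LPS+ET and 10.7% in LPS+ET+KU against LPS, in both directions together. Among other sensors and their adaptors 34 of 38 were tested, and 3 rose and 3 fell in LPS+ET against LPS (median log2 difference -0.19, beside 0.03 over all genes). Ikbke, a kinase that can activate IRF3 and IRF7, rose by 2.26 ± 0.27, from 3.22 ± 0.399 to 15.5 ± 3.42 CPM. Nlrx1, a mitochondrial NLR protein, rose by 1.98 ± 0.32, and Rnf135, a ubiquitin ligase of RIG-I, by 1.09 ± 0.16. Tmem173, the adaptor STING, fell by 0.74 (SE 0.17), from 404 ± 46.6 to 241 ± 34.8 CPM, and Traf3 fell by 0.74 (SE 0.15). These 5 were also called in LPS+ET+KU against LPS, with the same sign and the same LPS gradients. None of the list was called for LPS+ET+KU against LPS+ET by edgeR (8 had an unadjusted p under 0.05).

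Of 7 other interferon regulatory factors tested, 3 fell in LPS+ET against LPS and none rose (median -0.46). Irf8, a factor of B and myeloid cells, fell by 1.99 (SE 0.28), from 564 ± 68.6 to 142 ± 39.4 CPM, Irf2 by 0.98 (SE 0.18) and Irf5 by 0.91 (SE 0.17). In LPS+ET+KU against LPS the 3 called were Irf8, Irf2 and Irf4, which is needed for plasma cell formation and fell by 0.98 (SE 0.19). The sum of B cell markers was lower in LPS+ET than in LPS in the same gradients, as given above, and its part was not tested. Of 16 tested interferon receptor and JAK-STAT genes 1 was called in LPS+ET against LPS, Socs1, a feedback inhibitor of JAK kinases, which rose by 1.62 ± 0.32 (median of the list 0.02). In LPS+ET+KU against LPS Socs1 rose by 1.35 ± 0.31, while Jak1, a kinase of the interferon receptors, fell by 1.17 (SE 0.24) and Pias1 by 1.00 (SE 0.18). Of 13 other macrodomain and mono-ADP-ribosyl transferase genes 1 was called, Parp10, which rose over LPS by 1.95 ± 0.27 after etoposide and by 1.24 ± 0.27 with KU55933 before it (medians -0.22 and 0.05). For LPS+ET+KU against LPS+ET edgeR called none of these 3 lists' genes (2 other interferon regulatory factors, 2 receptor and JAK-STAT genes and 4 macrodomain and transferase genes had an unadjusted p under 0.05).

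Interferon-stimulated effectors are the output of the pathway. Of 18 tested, 1 rose and 5 fell in LPS+ET against LPS (median -0.18), where 12.7% of all genes were called. In LPS+ET+KU against LPS+ET 4 rose and none fell (median 0.71, beside 0.04 over all genes), where 0.455% of all genes were called. In LPS+ET+KU against LPS 3 rose and none fell (median 0.11, beside 0.09 over all genes), where 10.7% were called. Cxcl10, a chemokine, was at 3.28 ± 0.399 CPM in LPS, 3.08 ± 0.776 CPM after etoposide alone and 55.1 ± 29.7 CPM with KU55933, a rise of 4.17 ± 0.49 on the log2 scale over LPS+ET. Ifit1, which binds foreign RNA, rose from 71.8 ± 8.85 to 360.2 ± 139 CPM (2.33 ± 0.28), Rsad2 by 2.13 ± 0.26 and Ifit2 by 2.12 ± 0.31. In LPS+ET against LPS Ifit3 fell by 2.29 (SE 0.49), Samd9l by 1.71 (SE 0.27), Ifit2 by 1.44 (SE 0.30) and Herc6 by 0.83 (SE 0.19), while Lgals3bp rose by 1.18 ± 0.22. Of 6 interferon genes on the list, Ifng was in the table used here with 14 counts and did not pass the filter.

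Likeness to the members was measured by Pearson's r of log2 CPM over the 12 gradients, among 7391 other genes. These r describe gradients that share treatments, pools and depth. The nearest genes to Irf7 were Snhg12 (r = 0.908) and Cxcl10 (r = 0.907), and those to Ifih1 were Gbp7 (r = 0.903) and Ttc9c (r = 0.864). Dhx58 was nearest to the row named mmu-mir-155 (r = 0.914) and to Gbp2 (r = 0.896), and Parp14 to Zfp318 (r = 0.932) and Ifit2 (r = 0.920). Stat2 was nearest to Hist1h4i (r = 0.959) and Uhrf1bp1 (r = 0.958), Irf9 to Trappc10 (r = 0.943) and Aimp1 (r = 0.942), and Irf1 to Snap47 (r = 0.922) and Trim3 (r = 0.917). Zbp1 was nearest to Dnajc25 (r = 0.941) and Cd40 (r = 0.923), and Ddx58 to Serp1 (r = 0.936) and Pip5k1b (r = 0.929). Among the members themselves the closest pairs were Zbp1 with Ddx58 (r = 0.82), Ddx58 with Parp14 (r = 0.77), Dhx58 with Parp14 (r = 0.76) and Ifih1 with Parp14 (r = 0.75). Stat2 and Irf9, which encode partners in ISGF3, had r = -0.42.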

How the data were processed

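Ribosome-associated mRNA of mouse B cells was sequenced from its 3′ ends in 13 fractions of 12 gradients. The deposited file holds whole-number counts per gene, which the authors made by demultiplexing, removing PCR duplicates by random barcode, mapping to GRCm38 and summing tags over selected poly(A) sites. The aligner for these libraries is not given in the sources used here, and the submitters' processing notes name TopHat2 2.0.12, HTSeq and DESeq2 1.6.3 without a role.

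From the counts, fractions were summed per gradient (all, monosomes, light or heavy polysomes) and tested in 1 fit of 12 gradients with edgeR 4.0.16 in R 4.3.3 (quasi-likelihood test, TMM, filterByExpr, Benjamini-Hochberg over all genes tested, called under 0.01). Shares were tested with limma 3.58.1, as log2 odds of CPM, for genes with a mean of at least 100 counts per gradient. Equal-weight levels used log2(CPM + 1) and limma. Alternatives were DESeq2 1.42.0, RLE size factors, no filter, other thresholds, a replicate block and each gradient left out. Leaving out pool LUL16 was chosen after seeing the data. The edgeR and limma steps were tested on simulated data, where the share, equal-weight and interaction tests missed most of the smaller changes. The members, gene lists and tests were chosen with earlier results of these data known. All 9 members are named. From each list the called genes with the largest change are named, up to 5 per comparison, and for each member the 2 other genes of highest Pearson r among genes of at least 10 CPM (prior count 0.5).

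Of the columns, 79 matched 1 sample and 78 (pools LUL16 and LUL18) matched a group only. Pools come from the column names. Deviations from the treatment means correlated at r = 0.272 to 0.783 in 12 of 12 same-pool pairs of gradients, and at -0.604 to 0.273 between pools, so pool was taken to pair the gradients. Depth limits the fractions most, with library totals from 14724 counts. Annotation was GENCODE M21, and promoters are RefSeq sequences. A library of fraction 17 was left out. One gene of the B cell marker list is not reported here and was left out of the marker sums.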

Additional observations from a re-analysis of the deposited data

Results flagged for a closer look

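The heavy polysome share of Irf7 in LPS+ET was 13.17% in pool LUL16 and between 17.59% and 18.03% in the other 3 pools. The LUL16 gradient lay further from the others than Dixon's test at 95% allows for 4 gradients. It was the 1 group picked out of 54 groups tested, where chance picks about 1 in 20. This gradient also had the lowest total count and the lowest heavy polysome share of all counts (30.4%), and the part of depth in the value was not tested.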

How the results depend on the processing

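Of 162 member values with a tested difference, 42 were called in some setting and 120 in none. Interaction values called in some setting, which have no direction, were added to the 42. Among 483 alternative fits of these, 401 kept the side of the threshold and any direction, 38 lost a call and 43 gained one. In 1 the sign turned without a call, for Parp14 in ribosome-associated mRNA of LPS+ET+KU against LPS, at -0.02093 without the LPS+ET+KU gradient of pool LUL18, the lowest of a range that reached 0.2648 without that of pool LUL16. Of the 120, 42 changed sign in some setting.

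Shares of all genes called, as given above, are of the main fits and not of the alternatives. The counts of members below thus have no such share beside them, and a change in them cannot be read as particular to the members. With pool as replicate block, members called in ribosome-associated mRNA went from 0 to 3 for LPS+ET against LPS and from 0 to 3 for LPS+ET+KU against LPS+ET. For LPS+ET+KU against LPS they went from 1 to 2. In monosomes they went from 0 to 1 in each comparison with LPS+ET+KU, in light polysomes from 1 to 2 for LPS+ET against LPS and from 0 to 1 for LPS+ET+KU against LPS+ET, and in heavy polysomes from 0 to 1 for LPS+ET against LPS and from 0 to 2 for LPS+ET+KU against LPS. With a term per gradient as replicate block each interaction went from 0 to 1. The pairing changed no other count by over 1.5 times, and with no replicate block the heavy against monosome comparison in LPS+ET+KU went from 6 to 1.

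Without pool LUL16 the counts in ribosome-associated mRNA were 1 (LPS+ET against LPS) and 2 (LPS+ET+KU against LPS+ET). They were 1 in monosomes for LPS+ET against LPS and for LPS+ET+KU against LPS, and 1 in heavy polysomes for the same comparisons. DESeq2 called 1 in ribosome-associated mRNA and 1 in monosomes for LPS+ET+KU against LPS+ET, 1 in monosomes for LPS+ET+KU against LPS, and 2 in light and 1 in heavy polysomes for LPS+ET against LPS. For ribosome-associated mRNA, LPS+ET+KU against LPS gave 2 with equal weight of fractions and 0 with only the 8 compared gradients, and LPS+ET against LPS gave 2 at an adjusted p under 0.05. RLE size factors gave 1 in the LPS+ET against LPS interaction, and no filter on low counts gave 7 for heavy polysomes against monosomes in LPS. The causes were not tested.

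Leaving out 1 gradient gave 0 to 1 members called in each ribosome-associated comparison. It gave 1 to 1 in monosomes and 0 to 1 in light polysomes for LPS+ET against LPS, 0 to 1 in monosomes and heavy polysomes for LPS+ET+KU against LPS, and 0 to 1 in the LPS+ET+KU against LPS+ET interaction. Heavy polysomes against monosomes gave 3 to 5 in LPS, 1 to 5 in LPS+ET and 5 to 6 in LPS+ET+KU, and the other comparisons gave 0 to 0.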

Other observations

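A single library of fraction 17, outside the 13 fractions compared, held 777 counts. Ddx58 had 1 count in it and the other 8 members had 0, which allows a share of up to 0.386% of its tags for each of them, for counting error only.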
